A study of Mus musculus with 36 samples.

Results

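Transcripts of FGF21, of its co-receptor β-klotho and of the 4 FGF receptor tyrosine kinases were followed in primary mouse cells exposed to the ketone body β-hydroxybutyrate (βOHB) or to the short-chain fatty acid butyrate. The genes were Fgf21, Klb, Fgfr1, Fgfr2, Fgfr3 and Fgfr4. They were chosen by symbol, and all 6 were found among the 54347 genes of the deposited table. Cells came from male C57Bl/6 mice and were of 4 types. Each type was left for 6 h with βOHB at 5 mM, with butyrate at 5 mM or with the vehicle PBS as control. There were 3 libraries in each of the 12 groups and 36 libraries in all. Butyrate is the same short chain without the hydroxyl group that βOHB carries, and it is known as an inhibitor of histone deacetylases.

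The way the cells were made limits what they stand for. Adipocytes were differentiated from the stromal cells of inguinal fat pooled from several male mice, with dexamethasone, insulin, isobutylmethylxanthine and the PPARγ agonist rosiglitazone. Macrophages were grown from male bone marrow in medium conditioned by L929 cells. Myotubes were differentiated from hindlimb myoblasts that had been expanded with basic FGF, itself a ligand of the receptors studied here. Hepatocytes were freshly isolated from collagenase-perfused livers of C57BL/6NHsd mice and plated with dexamethasone before a night without it. Adipocytes and macrophages were treated in the same basal medium, and myotubes and hepatocytes each in one of their own. Cell type cannot be told apart from way of culture or substrain. Some of the primary cells came from Munich, without the type being named, so site may differ as well. No source used here states that the 3 libraries of a group came from separate animals or cultures, and p-values measure only the spread between these libraries.

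FGF21 is an endocrine member of the fibroblast growth factor family. It binds heparan sulfate weakly, circulates, and signals through FGF receptors, chiefly FGFR1, in cells that also make β-klotho. The liver secretes it in fasting under the control of PPARα, the nuclear receptor for fatty acids, and stressed muscle makes it under the control of ATF4, the effector of the integrated stress response. Adipose tissue is its classical target, whereas β-klotho with FGFR4 is the hepatocyte receptor for the intestinal hormone FGF15.

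Fgf21 lies on chromosome 7 of GRCm38 (chr7:45613886-45615490, minus strand) with 1 annotated transcript of 951 bp. Klb lies on chromosome 5 (chr5:65348314-65384007, plus strand). Fgfr1 is at chr8:25513654-25575718 (plus strand), Fgfr3 at chr5:33721674-33737068 (plus strand) and Fgfr4 at chr13:55152640-55168759 (plus strand). Fgfr2 is annotated at chr7:130162451-133123350 (minus strand), but only 1 of its 27 transcripts extends beyond chr7:130266263, and 2 exons of that transcript, 314 bp together, overlap exons of Ctbp2. Reads of these exons could have been split between Fgfr2 and Ctbp2, and the Fgfr2 values are uncertain to that extent.

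The letters just upstream of the annotated starts of Fgf21 and Klb are shown because the butyrate responses of this ligand and of its co-receptor went in opposite directions in different cell types. They come from RefSeq on GRCm38.p6, are written 5′ to 3′ on the strand of the gene, and stop at the first annotated base. Capitals mark matches to 4 motifs searched on both strands. The ATF4 response element was searched as TGATGCAAT. The letters of the E-box, a site for basic helix-loop-helix factors, were CACGTG. Those of the TATA box, where transcription is positioned, were TATAAA. The half-site bound by many nuclear receptors was searched as AGGTCA. The matched letters of different motifs did not overlap.
Fgf21, chr7:45615491-45615740, minus strand: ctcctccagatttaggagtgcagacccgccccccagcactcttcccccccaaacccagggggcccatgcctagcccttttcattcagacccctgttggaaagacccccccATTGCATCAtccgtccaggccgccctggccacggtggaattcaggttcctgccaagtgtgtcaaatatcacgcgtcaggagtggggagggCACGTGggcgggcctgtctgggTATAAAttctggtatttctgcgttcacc
Klb, chr5:65348161-65348313, plus strand: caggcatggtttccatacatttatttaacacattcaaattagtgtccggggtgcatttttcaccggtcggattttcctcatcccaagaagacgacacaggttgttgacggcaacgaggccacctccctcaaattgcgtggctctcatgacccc

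The Fgf21 window of 250 bases held 1 match each to the ATF4 element (on the other strand, 140 bases before the start), the E-box (50 bases before it) and the TATA box (28 bases before it). It held 0 matches to the half-site. Of 32851 RefSeq promoter windows of the same length, 0.167% held the ATF4 element, 6.02% the E-box, 12.4% the TATA box and 14.0% the half-site. The 153 bases of Klb held none of the 4, which occurred in 0.0913%, 2.96%, 7.42% and 8.65% of windows of that length. These matches describe letters and not bound factors.

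Library totals ranged from 18366289 to 23221473 estimated counts. Markers of each labelled cell type, 6 per type, were all detected in their own cells, with sums of 6303 to 8588 CPM for adipocytes, 10516 to 17131 for macrophages, 12312 to 27482 for myotubes and 31763 to 42154 for hepatocytes. Hepatocyte markers (Alb, Apoa1, Ttr, Hnf4a, Cps1 and Tat) summed to at most 0.176 CPM in the myotube control libraries, yet to 29.7, 538 and 122 CPM in the 3 myotube butyrate libraries and to 23.2 CPM in the third myotube βOHB library. Markers of fibroblasts and preadipocytes summed to 4506 to 7199 CPM in adipocytes, 1026 to 1746 in macrophages, 895 to 1431 in myotubes and at most 18.4 in hepatocytes. The third myotube butyrate library stood apart from the other 2 over all genes, with a chi-square per gene of 34.2 and 38.6 against 8.04 between those 2 and 2.62 to 25.6 between replicates of the other groups. A change in the share of a cell type and a change of RNA per cell cannot be told apart in these bulk libraries.

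All 6 genes passed the filter on low counts (CPM, counts scaled to the effective library size, above 1 in at least 6 libraries), Fgf21 only through the myotubes. A fold change is given only where each group compared averaged more than 3 counts per library.

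**Figure D1:**
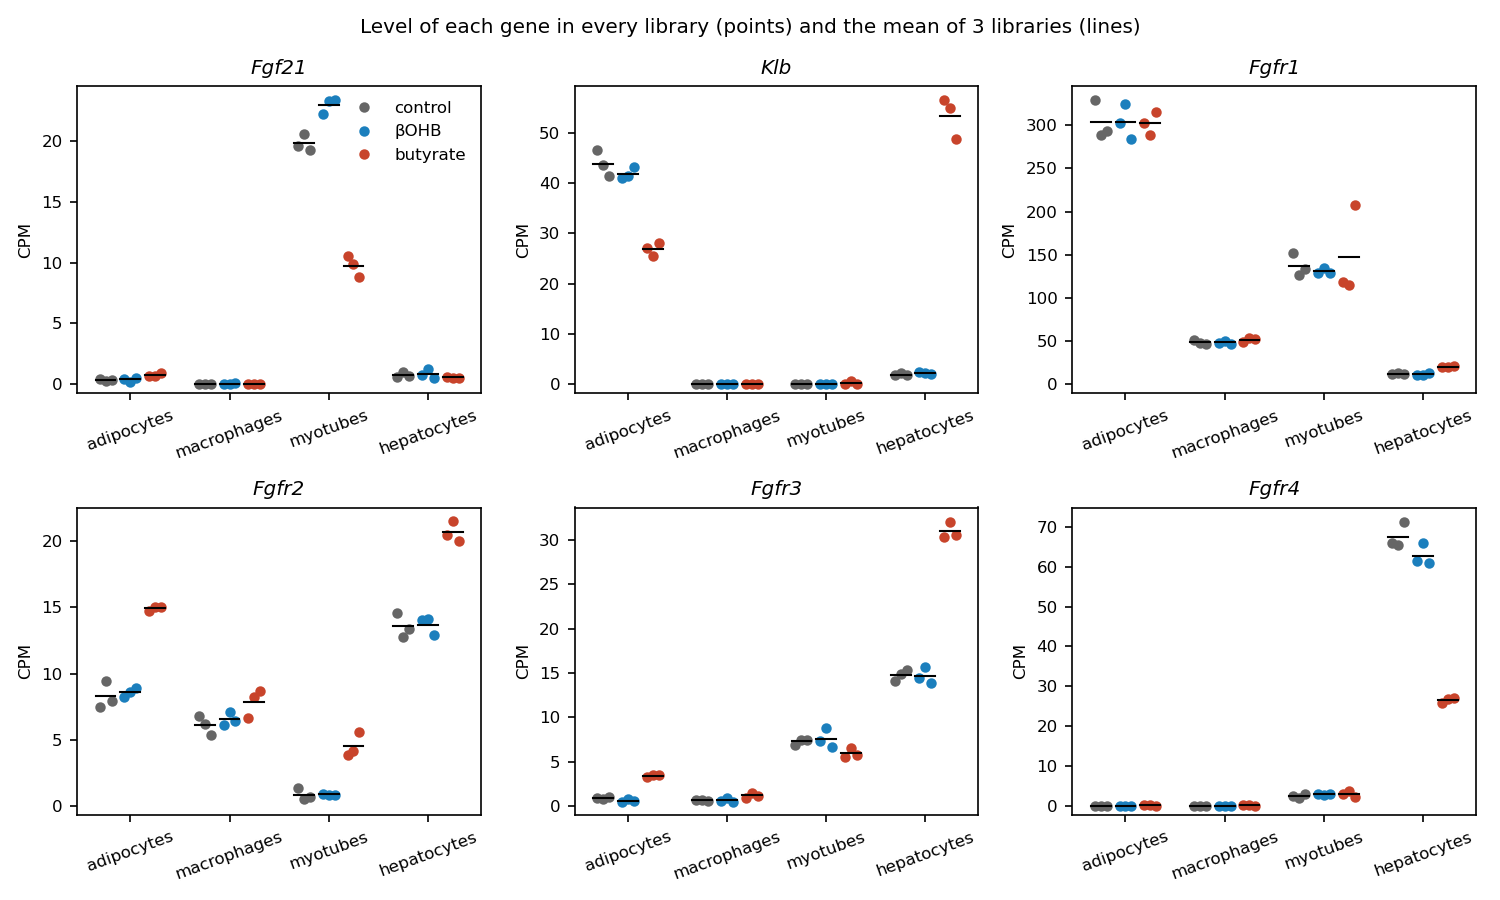
CPM of each gene (vertical axes, linear, from 0) in the libraries of 4 cell types (horizontal axes) with control (grey), βOHB (blue) or butyrate (red); points are libraries and lines are means of 3. Klb was between 41.4 and 46.5 CPM in adipocyte controls and between 48.7 and 56.4 CPM in hepatocytes with butyrate, whereas Fgf21 exceeded 1.3 CPM only in myotubes.

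Fgf21, the ligand, was made chiefly by the myotubes. Its level was 19.6, 20.6 and 19.3 CPM in the 3 myotube control libraries. Hepatocyte controls gave 0.564, 1.05 and 0.650 CPM, adipocyte controls 0.433, 0.302 and 0.380 CPM, and the 3 macrophage controls 0 counts, which allows up to 3 counts in each by counting error alone. The order was thus myotubes, hepatocytes, adipocytes and macrophages. The myotube and hepatocyte controls did not overlap and differed by a log2 fold change of 4.71 (SE 0.19, edgeR quasi-likelihood test, Benjamini-Hochberg adjusted p = 1.22e-19). Adipocyte controls lay below hepatocyte controls by 1.01 on the log2 scale (SE 0.33, adjusted p = 0.00711). This step lost its call without the second hepatocyte control library (−0.70, adjusted p = 0.123) and with a replicate block in the fit (adjusted p = 0.0659).

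With butyrate, Fgf21 fell in myotubes and rose in adipocytes. In myotubes it went to 10.6, 9.87 and 8.86 CPM, below every control library, with a log2 fold change of −1.02 (SE 0.13, adjusted p = 5.11e-08). In adipocytes it went to 0.641, 0.701 and 0.942 CPM, above every control library, with a log2 fold change of 1.03 (SE 0.31, adjusted p = 0.00492). These adipocyte values rested on 13, 17 and 21 counts against 10, 7 and 9 in the controls. In the same libraries 3 of 6 adipocyte markers and 3 of 5 measurable endothelial markers were lower, and the part of these shifts in the adipocyte changes was not tested. Hepatocytes gave 0.636, 0.496 and 0.540 CPM, within the range of their controls at one end and below it at the other, and the change of −0.43 was not called (SE 0.32, adjusted p = 0.278). Macrophages had 1, 0 and 1 counts. In the myotube libraries the myotube markers summed to 12312 to 17351 CPM with butyrate and 19872 to 24454 CPM in the controls (3 of 6 markers lower, 0 higher), and macrophage markers to 15.5 to 68.5 against 105 to 271 CPM (6 of 6 lower). Fibroblast and preadipocyte markers summed to 988 to 1431 against 904 to 1047 CPM (3 of 6 higher, 0 lower). The part of these shifts in the Fgf21 decrease and in the other myotube changes was not tested. Without the third butyrate library, which stood apart, the Fgf21 change was −0.96. The butyrate response of adipocytes exceeded that of myotubes by 2.05 on the log2 scale (SE 0.33, adjusted p = 1.60e-05).

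βOHB gave 22.2, 23.3 and 23.4 CPM of Fgf21 in myotubes. All 3 lay above the controls, by 0.21 on the log2 scale, but the difference was not called (adjusted p = 0.461, 95% interval −0.04 to 0.46). In adipocytes the βOHB libraries had 0.471, 0.212 and 0.541 CPM and in hepatocytes 0.789, 1.26 and 0.526 CPM, on both sides of their controls. Set directly against βOHB, butyrate lowered Fgf21 in myotubes by 1.23 on the log2 scale (SE 0.13, adjusted p = 1.38e-09).

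Klb, which encodes β-klotho and decides which cells can answer FGF21, was a transcript of the adipocytes in the control cells. Adipocyte controls gave 46.5, 43.6 and 41.4 CPM. Hepatocyte controls gave 1.76, 2.15 and 1.83 CPM, lower by a log2 fold change of 4.51 (SE 0.19, adjusted p = 3.75e-19). Macrophage controls had 0 counts in every library and myotube controls 0, 0 and 3 counts.

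Butyrate turned this order round between hepatocytes and adipocytes. In hepatocytes Klb rose to 56.4, 54.9 and 48.7 CPM, a log2 fold change of 4.80 (SE 0.19, adjusted p = 8.16e-19) or 27.8-fold. On this scale all 3 libraries lay above any adipocyte library. Scaled by library totals alone, the third (811 of 18366289 counts) lay below the first adipocyte control (1074 of 23019221 counts). Mean log2 CPM was then 5.59 in these hepatocytes and 5.48 in adipocyte controls. In adipocytes it fell to 27.2, 25.6 and 28.1 CPM, a log2 fold change of −0.70 (SE 0.13, adjusted p = 2.55e-05), with all 3 below the controls. The hepatocyte response exceeded the adipocyte response by 5.50 on the log2 scale (SE 0.23, adjusted p = 7.94e-17). Adipocyte markers summed to 6303 to 7714 CPM with butyrate and 7879 to 8588 CPM in the controls, and macrophage markers in the same cells to 247 to 272 against 282 to 334 CPM. Endothelial markers there summed to 122 to 144 against 188 to 215 CPM, with 3 of 5 measurable markers lower. Stellate cell markers summed to 98.5 to 108 against 262 to 281 CPM, but 1 of 4, Pdgfrb, was lower and 3 were not called. Biliary cell markers summed to 615 to 711 against 287 to 352 CPM, with 2 of 3 higher and 1 lower, and as this list summed to 6661 to 7186 CPM in macrophages and 3500 to 7102 CPM in myotubes, it did not mark biliary cells in these libraries. The part of such shifts in the adipocyte changes was not tested. In the hepatocyte libraries with butyrate, endothelial markers summed to 28.2 to 33.4 CPM against 83.0 to 98.0 in the controls, Kupffer cell markers to 4.26 to 5.03 against 9.72 to 10.9, and stellate cell markers to 21.3 to 24.3 against 12.8 to 21.4. Of these lists 6 of 6, 2 of 3 and 0 of 2 measurable markers were lower, and 1 stellate cell marker was higher. Of the biliary list 1 of 3 was higher (Spp1) and 2 were not called. Adipocyte markers summed to 20.8 to 24.4 against at most 9.22 CPM, with both measurable markers, Fabp4 and Cidec, higher and with Lep and Retn at 0 counts in every one of these libraries. Myotube markers summed to 42.3 to 46.5 against 24.3 to 25.7 CPM, with 1 of 4 measurable markers, Acta1, higher. The part of these shifts in the hepatocyte changes was not tested.

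Klb counts in myotubes with butyrate were 2, 18 and 2. One library thus carried nearly all of them, and no fold is given. edgeR called the difference (adjusted p = 0.00773), and without that library it did not (adjusted p = 0.461). The same library had the 538 CPM of hepatocyte markers, which was 1.30% of the mean of the hepatocyte butyrate libraries, and its Klb level was 1.37% of theirs. The corresponding shares were 0.0721% and 0.153% in the first library and 0.297% and 0.168% in the third.

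With βOHB, Klb was 40.9, 41.3 and 43.2 CPM in adipocytes and 2.52, 2.32 and 1.99 CPM in hepatocytes. The adipocyte values overlapped their controls (log2 fold change −0.07, 95% interval −0.33 to 0.19), and so did the hepatocyte values (0.25, 95% interval −0.30 to 0.80). Butyrate exceeded βOHB in hepatocytes by 4.54 on the log2 scale (SE 0.18, adjusted p = 1.04e-18) and lay below it in adipocytes by 0.63 (SE 0.13, adjusted p = 0.000105).

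Fgfr1, the receptor that FGF21 uses in fat, was the most abundant of the 4 receptor transcripts in adipocytes, macrophages and myotubes on a per-length scale. Relative to the summed exon length of each gene, control adipocytes had 30.7 ± 2.29 CPM per kb (SD, n = 3) of Fgfr1, which was 97.1% of the sum over the receptors. The share was 87.8% in macrophages and 88.5% in myotubes. Control hepatocytes differed, with 1.23 ± 0.0287 CPM per kb of Fgfr1, 5.21% of their sum, and 19.1 ± 0.920 CPM per kb of Fgfr4, 80.5% of it. With the length of the longest coding transcript instead, Fgfr4 was 69.2% of the sum in hepatocytes and Fgfr1 96.6% in adipocytes. Fibroblast and preadipocyte markers averaged 5262 CPM in control adipocytes, 1637 in macrophages, 956 in myotubes and 17.3 in hepatocytes. The part of such cells in the levels of Fgfr1 and of the other genes was not tested.

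**Figure D2:**
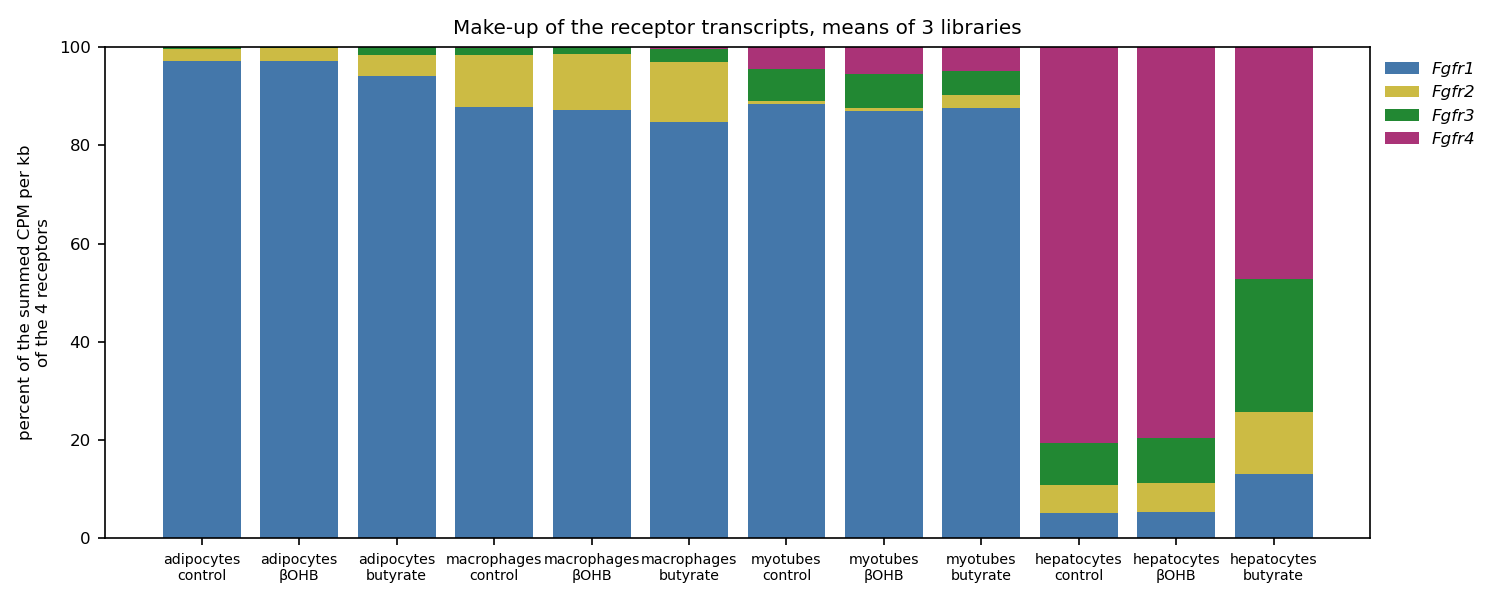
Percent of the summed CPM per kb of the 4 FGF receptors (vertical axis) that each receptor made up in the 12 groups (horizontal axis), from means of 3 libraries and exon lengths. Fgfr1 made up at least 84.6% in every group of adipocytes, macrophages and myotubes, and the Fgfr4 share in hepatocytes was 80.5% in the controls and 47.2% with butyrate.

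Fgfr1 in adipocytes was 330, 288 and 293 CPM in the controls, 302, 324 and 284 with βOHB, and 302, 288 and 315 with butyrate. The 3 groups overlapped, and the butyrate change was −0.01 on the log2 scale (95% interval −0.25 to 0.24), so that a fall of the size seen for Klb lay outside its interval. In hepatocytes Fgfr1 rose with butyrate from 11.9, 12.5 and 12.2 to 20.0, 20.0 and 21.6 CPM, a log2 fold change of 0.75 (SE 0.16, adjusted p = 0.000148). The hepatocyte response exceeded the adipocyte response by 0.76 (SE 0.20, adjusted p = 0.0029). Macrophage controls gave 51.7, 48.3 and 46.2 CPM and butyrate 49.0, 53.7 and 52.8, and the difference of 0.09 was not called (adjusted p = 0.568). It was called with library totals alone (0.31) and with only the macrophage libraries in the fit (0.12, adjusted p = 0.0444).

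Myotubes gave a split picture for Fgfr1. The controls had 152, 127 and 134 CPM, whereas the butyrate libraries had 118, 115 and 208. The third stood above every control and the other 2 below, and the change of 0.09 was not called (SE 0.12, adjusted p = 0.514). Without the third library it was −0.24 (adjusted p = 0.00398). The third library also had the highest sum of fibroblast and preadipocyte markers, 1431 CPM against 988 and 1005, and the lowest sum of myotube markers, 12312 CPM against 17351 and 16831.

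Fgfr2 and Fgfr3 rose with butyrate in most cells. Fgfr2, a receptor best known from epithelia, rose in hepatocytes from 14.6, 12.8 and 13.4 to 20.5, 21.5 and 20.1 CPM (log2 fold change 0.61, SE 0.13, adjusted p = 9.13e-05). In adipocytes it rose from 7.45, 9.44 and 7.94 to 14.7, 15.0 and 15.0 CPM (0.85, SE 0.13, adjusted p = 1.05e-06). Its largest change was in myotubes, where 1.38, 0.484 and 0.660 CPM became 3.82, 4.13 and 5.59 CPM (2.42, SE 0.21, adjusted p = 1.65e-11), and 2.15 to 2.96 with any 1 library left out. In each of these 3 cell types the butyrate libraries lay above all controls. In macrophages the groups overlapped at 6.82, 6.20 and 5.32 against 6.61, 8.23 and 8.67 CPM, and the call (0.36, SE 0.14, adjusted p = 0.0248) was lost when the third control, the second butyrate or the third butyrate library was left out (adjusted p = 0.14, 0.0619 and 0.0926).

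Fgfr3, known for its role in cartilage growth, rose in hepatocytes from 14.1, 14.9 and 15.4 to 30.4, 32.1 and 30.6 CPM (log2 fold change 1.07, SE 0.10, adjusted p = 7.83e-11). In adipocytes it rose from 0.823, 0.776 and 0.971 to 3.20, 3.50 and 3.50 CPM (1.98, SE 0.17, adjusted p = 1.53e-11), and in macrophages from 0.636, 0.705 and 0.519 to 0.913, 1.44 and 1.14 CPM (0.92, SE 0.22, adjusted p = 0.000981). The treated libraries lay above the controls in all 3. In macrophages with butyrate, macrophage markers summed to 10516 to 11061 against 16964 to 17131 CPM in the controls (3 of 6 lower), endothelial markers were lower in 4 of 5 and myotube markers higher in 5 of 5, summing to 18.4, 22.1 and 54.5 against 5.93, 12.5 and 7.14 CPM. The part of these shifts in the macrophage changes was not tested. Myotubes went the other way, from 6.88, 7.44 and 7.48 to 5.49, 6.55 and 5.77 CPM (−0.29, SE 0.11, adjusted p = 0.0245). That call was lost under several settings, among them library totals alone (−0.15, adjusted p = 0.225) and DESeq2 (adjusted p = 0.0549). It was also lost with the third or the second control library left out, and with the first or the third butyrate library left out, at adjusted p between 0.0575 and 0.104. The adipocyte response exceeded the myotube response by 2.27 on the log2 scale (SE 0.20, adjusted p = 3.44e-10).

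Fgfr4, the main receptor of the hepatocyte, was found in hepatocytes and, at a low level, in myotubes. Hepatocyte controls gave 66.0, 65.4 and 71.3 CPM, and butyrate lowered this to 25.9, 26.9 and 27.0 CPM, a log2 fold change of −1.34 (SE 0.10, adjusted p = 2.87e-12) or 2.54-fold lower, with no overlap. Myotube controls gave 2.52, 2.03 and 3.04 CPM and myotubes with butyrate 2.89, 3.64 and 2.24 CPM, which overlapped (0.22, SE 0.16, adjusted p = 0.244). The change became a call without the third butyrate library (0.37, adjusted p = 0.0453). The responses of hepatocytes and myotubes differed by −1.56 (SE 0.19, adjusted p = 1.49e-07). Adipocytes had at most 3 counts and macrophages at most 4 in any library. The adipocyte counts of 3, 2 and 1 with butyrate against 0 in each control were called by edgeR (adjusted p = 0.00717), but at this level no fold is given.

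The decrease of Fgfr4 and the increases of Klb, Fgfr1, Fgfr2 and Fgfr3 changed the receptor make-up of butyrate-treated hepatocytes. Per length, Klb stood at 0.421 ± 0.0462 CPM per kb in the controls and 11.7 ± 0.900 with butyrate, above the 7.51 ± 0.173 of Fgfr4, 4.33 ± 0.131 of Fgfr3, 2.08 ± 0.0912 of Fgfr1 and 2.00 ± 0.0726 of Fgfr2 (SD, n = 3). The share of Fgfr4 was 47.2% with butyrate (33.1% by the longest coding transcripts) and that of Fgfr3 27.2% (30.2%). Adipocytes with butyrate kept Fgfr1 at 94.0% of the sum.

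**Figure D3:**
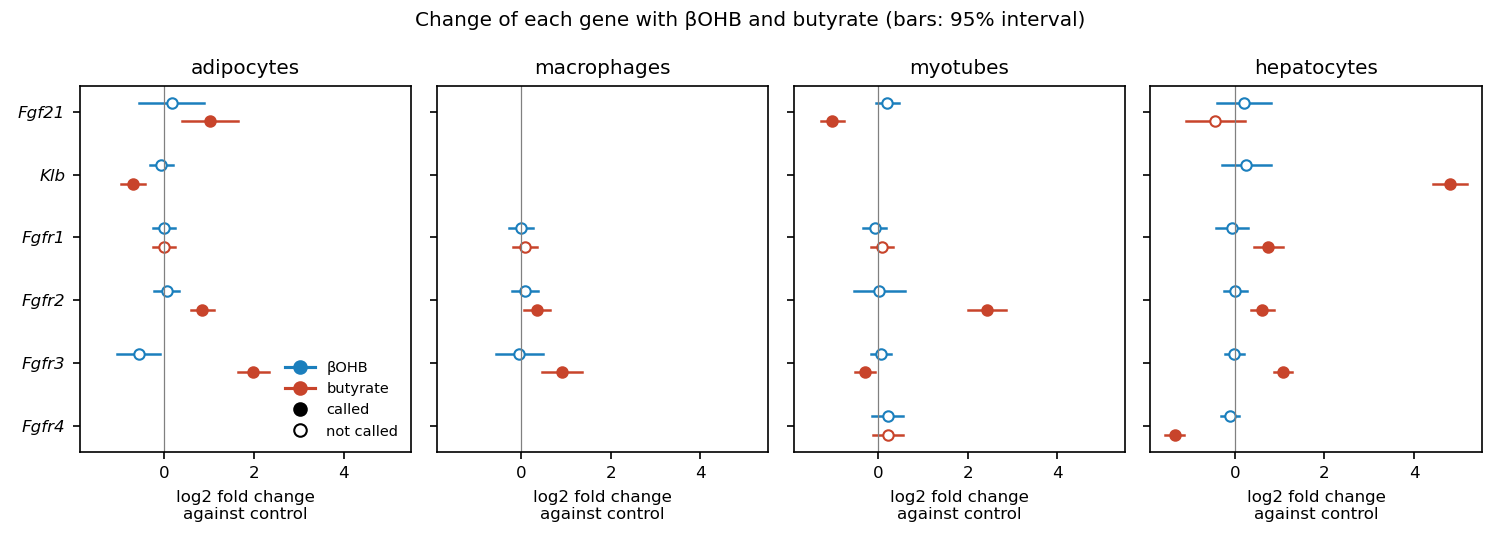
Log2 fold change from the matching PBS libraries (horizontal axes) for each gene (vertical axis), with βOHB in blue and butyrate in red; bars are 95% intervals, filled points were called at an adjusted p below 0.05, and genes with a group at 3 counts or fewer are left out. Klb in hepatocytes stands at 4.80, Fgf21 at 1.03 in adipocytes and at −1.02 in myotubes, and all βOHB points are open.

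Counted over the genes above the count limit, butyrate changed 5 of 6 in hepatocytes (4 higher, 1 lower), where 63.5% of all 15340 tested genes were called. It changed 4 of 5 in adipocytes (3 higher, 1 lower; 61.0% of all genes), 3 of 5 in myotubes (1 higher, 2 lower; 66.5%) and 2 of 3 in macrophages (both higher; 65.0%). No excess over the shares of all genes is read from so few members. Calls over all genes split into 4717 higher and 4642 lower in adipocytes, 4886 and 5086 in macrophages, 5083 and 5117 in myotubes and 4762 and 4975 in hepatocytes. The median log2 fold change of all tested genes lay between −0.01 and 0.00 in the 4 comparisons. Scaling by library totals alone raised that median to 0.20 in macrophages and 0.13 in myotubes.

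βOHB changed 0 of 5 genes in adipocytes, 0 of 3 in macrophages, 0 of 5 in myotubes and 0 of 6 in hepatocytes by edgeR, limma-voom and DESeq2. Of all tested genes 0.00652%, 0.0%, 2.91% and 0.00652% were called in these cells. None of the genes above the limit had an unadjusted p under 0.05 with βOHB by edgeR. The lowest belonged to Fgfr3 in adipocytes, at 0.471, 0.740 and 0.541 CPM, below the controls (−0.57, 95% interval −1.06 to −0.08, adjusted p = 0.705, edgeR). In hepatocytes Fgfr4 was 61.4, 66.1 and 61.0 CPM with βOHB (−0.10, 95% interval −0.30 to 0.09).

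The 2 compounds were compared directly at the same dose and time. Butyrate differed from βOHB for 4 of 5 genes in adipocytes (59.5% of all genes), 1 of 3 in macrophages (64.7%), 3 of 5 in myotubes (66.0%) and 5 of 6 in hepatocytes (63.5%), over 19 pairs of values, with p-values adjusted over all genes of each comparison. The gap in hepatocytes was 1.08 on the log2 scale for Fgfr3 (SE 0.10) and −1.24 for Fgfr4 (SE 0.10), each with an adjusted p of 5.16e-11 or less. Fgf21 in adipocytes was 0.86 higher with butyrate than with βOHB (SE 0.31, adjusted p = 0.0182), a call that was lost without the second βOHB library (adjusted p = 0.143) or the third butyrate library (adjusted p = 0.117), and with no filter on low counts (adjusted p = 0.0508). In myotubes Fgfr3 was 0.35 lower with butyrate than with βOHB (SE 0.11, adjusted p = 0.00713), and this call was lost with library totals alone (−0.15, adjusted p = 0.221), with only the myotube libraries in the fit (adjusted p = 0.0573) and without the second βOHB library (adjusted p = 0.088). No call was made for Fgfr1 in adipocytes, at −0.01 (95% interval −0.25 to 0.24), nor for Fgf21 in hepatocytes, at −0.64 (95% interval −1.25 to −0.02, adjusted p = 0.0745). The Fgf21 gap was called without the third βOHB library (−0.88, adjusted p = 0.0191). Leaving out another library brought it as low as −0.25, with adjusted p up to 0.605.

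Differences between the butyrate responses of 2 cell types were called for 4 of 5 genes between hepatocytes and adipocytes (41.4% of all genes), for 4 of 5 between hepatocytes and myotubes (48.4%) and for 3 of 4 between adipocytes and myotubes (36.8%). The one gene not called in the first set was Fgfr2, at −0.24 (95% interval −0.61 to 0.12). Fgf21 fell short of a call between hepatocytes and myotubes, at 0.59 (95% interval −0.13 to 1.30).

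Control levels differed for nearly every pair of cell types. Calls were made for 2 of 3 genes between adipocytes and macrophages (77.5% of all genes), 4 of 4 between adipocytes and myotubes (78.2%), 5 of 5 between adipocytes and hepatocytes (81.1%), 3 of 3 between macrophages and myotubes (82.2%), 3 of 3 between macrophages and hepatocytes (82.1%) and 5 of 5 between myotubes and hepatocytes (86.6%). The exception was Fgfr3 in adipocytes and macrophages (0.47, SE 0.23, adjusted p = 0.123). The Fgf21 call between adipocytes and hepatocytes was not stable, as given above. Fgfr1 descended from adipocytes through myotubes and macrophages to hepatocytes, with adjacent steps of 1.14, 1.50 and 2.00 on the log2 scale.

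The list of other FGF family members held secreted ligands and the intracellular Fgf11 and Fgf13. Of 21 in the list 9 were tested, and Fgf7, the ligand of the epithelial form of FGFR2, stood out among the decreases with butyrate: it fell in adipocytes from 44.1, 41.2 and 43.6 to 4.78, 3.38 and 4.13 CPM (log2 fold change −3.40, SE 0.13, adjusted p = 1.76e-17), in macrophages by 3.06 and in myotubes by 1.79 on the log2 scale. Fgf2, the basic FGF, fell by 2.29 in adipocytes, 1.80 in macrophages and 1.41 in myotubes, and Fgf5 by 2.44 in adipocytes. Fgf11 rose in macrophages from 1.74, 1.41 and 1.64 to 28.4, 27.3 and 29.2 CPM (4.13, SE 0.17, adjusted p = 8.61e-19), in adipocytes by 3.25 and in myotubes by 0.49. In hepatocytes Fgf1 rose by 0.75 and Fgf13 fell by 1.55. Fgf15, the other ligand of Klb-bearing cells, had 0 counts in every control library of hepatocytes and adipocytes and at most 9 in any library. With butyrate 1 of 8 measurable members rose and 5 fell in adipocytes (61.0% of all genes called; median −2.15, against 0.00 for all genes), 1 and 3 of 5 in macrophages (65.0%), 2 and 4 of 8 in myotubes (66.5%) and 1 and 1 of 3 in hepatocytes (63.5%). The 1 that rose in adipocytes and in macrophages was Fgf11.

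Among 9 klotho family genes and receptor modulators, Fgfrl1, a receptor without a kinase domain, rose with butyrate in macrophages from 7.08, 7.46 and 8.56 to 20.3, 21.4 and 22.8 CPM (1.48, SE 0.12) and in hepatocytes by 0.35. Flrt1 and Flrt3, membrane proteins that bind FGF receptors, rose in myotubes by 1.26 and 1.30 and in adipocytes by 1.79 and 0.81. Flrt1 also rose in hepatocytes, by 0.66, and Flrt2 fell in macrophages by 1.52. Of the FGF-binding proteins, Fgfbp1 fell in hepatocytes by 1.23 and in myotubes by 1.12, and Fgfbp3 rose in adipocytes by 1.28. In all, 3 of 7 rose and 1 fell in adipocytes (61.0% of all genes called), 1 and 1 of 6 in macrophages (65.0%), 2 and 3 of 8 in myotubes (66.5%) and 2 and 1 of 5 in hepatocytes (63.5%), a share below that of all genes in each.

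Of 19 docking and ERK pathway genes below the receptors, 7 were higher and 8 lower with butyrate in adipocytes (61.0% of all genes called), 7 and 6 in macrophages (65.0%), 7 and 6 in myotubes (66.5%) and 8 and 10 in hepatocytes (63.5%). Nras, a small GTPase that links the receptors to the ERK cascade, fell in all 4 cell types, by 1.05 in adipocytes, 0.86 in macrophages, 0.40 in myotubes and 1.25 in hepatocytes on the log2 scale. Sos2, which loads RAS with GTP, fell in adipocytes by 0.77. Plcg1, a phospholipase recruited by the receptors, rose in macrophages by 0.98 and in myotubes by 0.69, and Frs2, the docking protein that FGF receptors phosphorylate, rose in hepatocytes by 1.01.

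Of 16 feedback inhibitors and early targets of FGF signalling, 9 rose and 4 fell with butyrate in adipocytes (61.0% of all genes called), 9 and 2 in myotubes (66.5%), 9 and 2 in hepatocytes (63.5%) and 7 and 7 in macrophages (65.0%). Their medians were 0.29, 0.32, 0.31 and −0.01, against −0.01 to 0.00 for all genes, whose calls split nearly evenly by direction. Il17rd, which encodes the FGF antagonist SEF, rose in each cell type: by 1.84 in adipocytes, 2.40 in macrophages, 1.42 in myotubes and 2.67 in hepatocytes, where 1.00, 1.17 and 1.71 CPM became 7.74, 9.42 and 7.81 CPM (SE 0.17, adjusted p = 1.68e-14). The early genes Egr1 and Etv1 rose in adipocytes by 1.42 and 1.70, and Fos rose by 1.64 in myotubes and 1.21 in hepatocytes. The Sprouty genes differed, since Spry1 rose in macrophages and hepatocytes by 1.39 and 1.18 whereas Spry2 fell in macrophages and myotubes by 1.73 and 1.27. Many of these genes also answer other growth factors and stress.

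Regulators of Fgf21 and genes that share them were set beside Fgf21. Atf4 fell with butyrate in all 4 cell types, by 1.02 in adipocytes, from 140, 125 and 121 to 62.9, 59.7 and 66.9 CPM (SE 0.07, adjusted p = 2.11e-14), by 0.87 in macrophages, 0.93 in myotubes and 0.85 in hepatocytes. Its transcript fell both in myotubes, where Fgf21 fell, and in adipocytes, where Fgf21 rose. ATF4 protein was not measured, and its part in the Fgf21 changes was not tested. Ppara, the receptor behind fasting expression of Fgf21 in liver, rose in myotubes by 1.09 from 2.38, 2.07 and 2.42 to 5.21, 5.18 and 4.25 CPM. It fell in adipocytes by 0.67 and was not called in hepatocytes (0.02, adjusted p = 0.962). Ppargc1a, a coactivator of oxidative metabolism, rose in hepatocytes and macrophages by 2.91 and 2.92 in myotubes by 1.50 and in adipocytes by 0.72. Mlxipl (ChREBP), which mediates induction of Fgf21 by sugar, rose in myotubes by 2.58.

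Several other regulators fell with butyrate. Xbp1, an effector of the unfolded protein response, fell in hepatocytes by 1.65 and in adipocytes by 1.06. Pparg, the target of rosiglitazone, fell in adipocytes by 0.96, in hepatocytes by 0.95 and in macrophages by 0.69. Rxra, its partner, fell in macrophages by 0.92, and Sirt1 in adipocytes by 1.61. Of 15 regulators, 3 rose and 8 fell in adipocytes (median −0.47, against 0.00 for all genes; 61.0% of all genes called), 5 and 6 of 13 in macrophages (65.0%), 7 and 5 of 14 in myotubes (66.5%) and 4 and 6 of 15 in hepatocytes (63.5%).

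**Figure D4:**
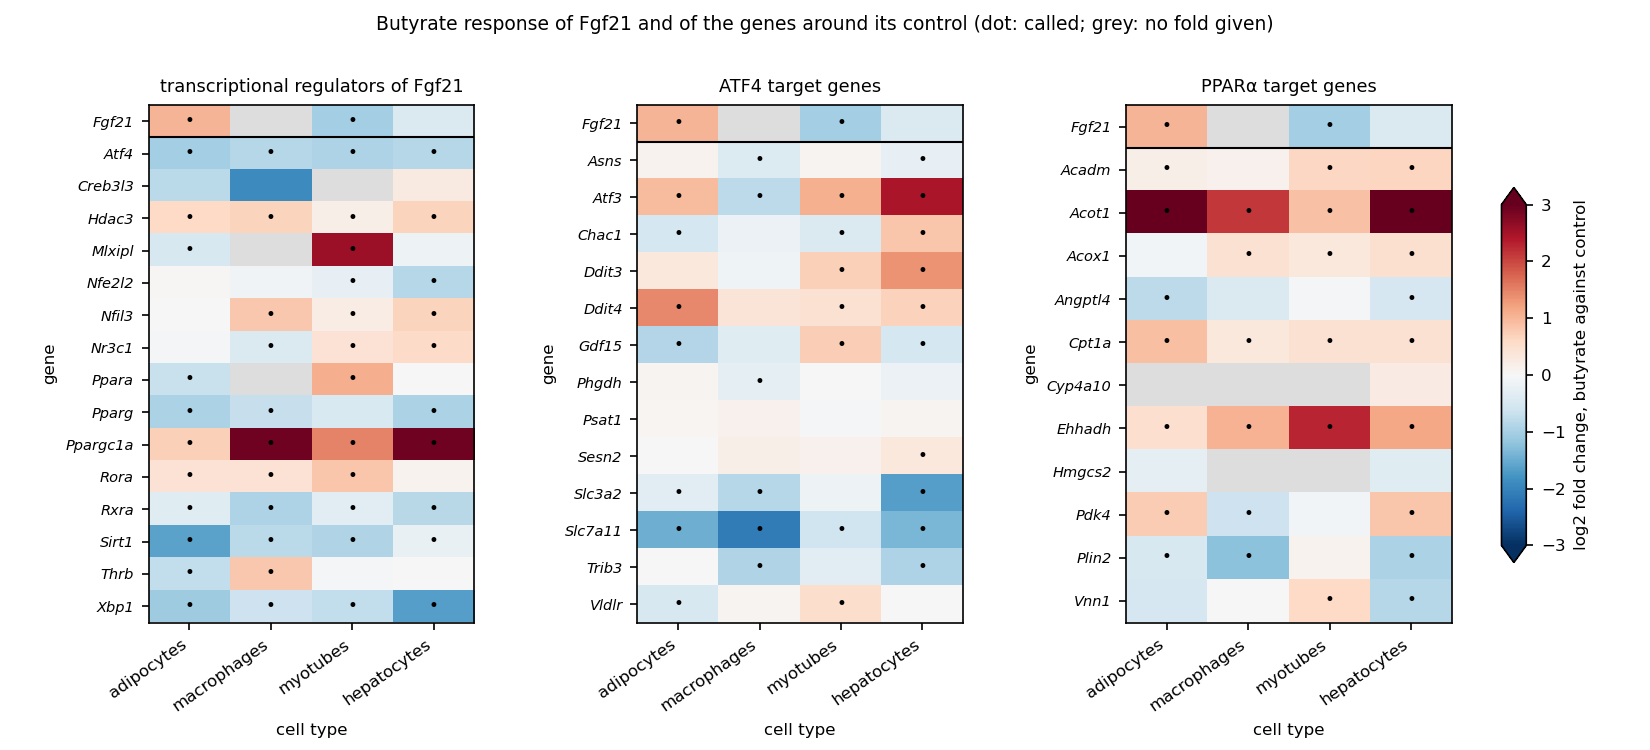
Colours give the log2 fold change with butyrate against control for Fgf21 (top row of each panel) and for its regulators, ATF4 target genes and PPARα target genes (vertical axes, genes) in 4 cell types (horizontal axes); dots mark calls, grey cells have no fold, and the colour scale ends at 3 in each direction. The Atf4 transcript fell in all 4 cell types, by 0.85 to 1.02, and Fgf21 stood at 1.03 in adipocytes and −1.02 in myotubes.

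ATF4 target genes did not move as a block with butyrate. In myotubes, where Fgf21 fell, 5 of 13 rose and 2 fell, a share below the 66.5% of all genes called, the rises being led by Atf3 (1.07), the stress hormone Gdf15 (0.73) and Ddit3 (0.71), with a list median of 0.07. In adipocytes (61.0% of all genes called) 2 rose, Ddit4 by 1.44 and Atf3 by 0.96, and 5 fell, led by the cystine transporter Slc7a11 at −1.47. Slc7a11 fell in hepatocytes by 1.37 and in macrophages by 2.11 (in myotubes by 0.60, where the groups overlapped), together with Slc3a2, its partner subunit, by 1.65 and 0.85, and Trib3 fell in macrophages by 0.91. Atf3 rose in hepatocytes from 34.9, 37.1 and 33.9 to 190, 196 and 195 CPM (2.46, SE 0.10, adjusted p = 2.77e-19), where 5 rose and 5 fell (63.5% of all genes called). In macrophages 0 rose and 6 fell, also a share below that of all genes (65.0%).

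Of the PPARα target genes above the count limit, 6 of 11 rose with butyrate and 3 fell in hepatocytes (median 0.46; 63.5% of all genes called), 6 of 9 rose and 0 fell in myotubes (0.46; 66.5%), 5 of 10 rose and 2 fell in adipocytes (0.05; 61.0%), and 4 of 9 rose and 2 fell in macrophages (0.13; 65.0%). Acot1, a thioesterase of fatty acyl-CoA, rose in all 4 cell types, by 3.76 in hepatocytes, 3.11 in adipocytes, 2.12 in macrophages and 0.88 in myotubes. Ehhadh, a peroxisomal β-oxidation enzyme, rose in hepatocytes by 1.17 and in macrophages by 1.03. In myotubes its call (2.27, SE 0.44) rested on 1.14, 4.21 and 1.79 CPM, the highest again in the library with 538 CPM of hepatocyte markers. Acadm rose in myotubes by 0.61 and Cpt1a in adipocytes by 0.91. The lipid droplet protein Plin2 fell in macrophages by 1.22 and in hepatocytes by 0.95, and Angptl4 fell in adipocytes by 0.78.

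With βOHB, none of the genes of these 7 lists that lay above the count limit was called by edgeR in adipocytes, macrophages or hepatocytes. In myotubes, where 2.91% of all genes were called, 2 list genes were, a share no higher than that background. All 6 macrophage markers were lower in these βOHB libraries (median −1.60), summing to 57.6, 42.2 and 104 CPM against 271, 218 and 105 in the controls, and the part of this shift in the βOHB values of myotubes was not tested. The 2 genes were Fgf11, from 34.8, 41.3 and 39.9 to 52.3, 52.0 and 49.5 CPM (0.41, SE 0.12, adjusted p = 0.0483), and Gab1, a docking protein, from 22.0, 22.1 and 23.0 to 26.0, 28.7 and 27.6 CPM (0.30, SE 0.08, adjusted p = 0.0308). Both were near the threshold, and leaving out any of the 6 libraries of that comparison left 0 or 1 of the 2.

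Genes within 25 kb of Fgf21 and Klb were read as well. Mamstr, a coactivator of the muscle regulator MEF2 whose gene starts 24487 bp from Fgf21, fell with butyrate in myotubes from 43.0 ± 1.27 to 17.8 ± 0.830 CPM (SD, n = 3; −1.27, SE 0.10, adjusted p = 3.66e-12) and rose in adipocytes from 0.443 ± 0.0273 to 0.877 ± 0.235 CPM (0.96, SE 0.28, adjusted p = 0.00402), so that its calls had the directions of those of Fgf21. Bcat2 fell in hepatocytes by 1.46, and Rasip1 fell in hepatocytes by 3.88 and in adipocytes by 1.94. Endothelial markers were lower in the same libraries, 6 of 6 in hepatocytes and 3 of 5 in adipocytes. The part of this shift in the Rasip1 changes was not tested. A030001D20Rik, annotated as antisense within Rasip1, rose in adipocytes by 1.31. Strand-specific counting is not stated, and overlap of its exons with those of Rasip1 was not examined. Reads of any shared exons may therefore have been split between the 2 genes. Fut1, Izumo1, Gm31479 and Gm45437, the remaining neighbours of Fgf21, averaged under 1 CPM in each control and butyrate group. Beside Klb, the replication factor gene Rfc1 rose in all 4 cell types, by 0.20 to 1.09, and the lipoic acid synthase gene Lias rose in hepatocytes by 0.25 and fell in myotubes by 0.32. Rpl9 fell in adipocytes by 0.24, and 1110003F10Rik averaged under 1 CPM. None of these neighbours changed by as much as Klb in hepatocytes.

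The genes whose pattern over the 12 group means was most like each member, by Pearson's r of log2 CPM against 15339 others, are given as a description, since the groups share cell types and the points are not independent. For Fgf21 they were Spats2, the antisense transcript Hectd2os and Bod1 (r = 0.993, 0.993 and 0.990). For Klb they were Sucnr1, the succinate receptor, Lpin1 and Pim3 (0.987, 0.983 and 0.980), and for Fgfr1 Cdr2l, Arxes2 and Pla2g16 (0.994, 0.994 and 0.993). Fgfr2 was nearest to Epas1, Por and Mtus1 (0.981, 0.977 and 0.976), Fgfr3 to Mrpl43, Gnl2 and 4933421A08Rik (0.980, 0.980 and 0.973), and Fgfr4 to F2, the prothrombin gene, Csn3 and Zfp623 (0.994, 0.994 and 0.992).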

How the data were processed

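RNA was sequenced by the authors as paired-end reads on the BGISEQ-500 and quantified with Salmon 1.2.1, and the deposited table holds estimated counts per gene for 36 libraries. The methods describe scaling by transcript length and library size, but library totals differ and 55.6% of the values above 0 are whole, so the values were read as unscaled. If lengths were scaled for, the CPM per kb would be affected. Groups and replicate numbers follow the titles and treatment labels, since the source name of the butyrate samples mentions both compounds. The estimates were rounded to whole numbers. Testing was by the quasi-likelihood F test of edgeR 4.0.16 (R 4.3.3) after TMM scaling, with 12 group means over all 36 libraries. Of the genes, 15340 had CPM above 1 in at least 6 libraries, p-values were Benjamini-Hochberg adjusted over these, and a call needed an adjusted p below 0.05. An SE is the log2 fold change divided by the root of F, and 95% intervals use the test's degrees of freedom, so that for low counts, where edgeR bounds p from below, an interval can leave out 0 without a call. Symbols, positions and lengths come from GENCODE M21 of GRCm38, which matched 54094 of 54347 genes.

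Named were the 6 members, per list and comparison at most the 3 largest calls with all treated libraries on one side of the controls, neighbours within 25 kb and the 3 most alike genes; some genes named in one cell type are also given in others. The members and lists were chosen with earlier results of these data known. The test was checked on simulated data. Alternatives were RLE scaling, library totals alone, 3 other filters, limma-voom 3.58.1, DESeq2 1.42.0, a replicate block, fewer libraries in the fit, each library left out, and, for levels, another prior count or transcript length. Replicate numbers were not taken as pairs, since no source states a pairing. Correlations between same-numbered libraries were low but cannot exclude one. Counting limits cover counting error only. Some genes that this rule names are not reported here.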

Additional observations from a re-analysis of the deposited data

Results flagged for a closer look

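The butyrate response differed between cell types for several of these genes, by the test of the difference in log2 fold change itself. Between hepatocytes and adipocytes the difference was 5.50 for Klb, −1.46 for Fgf21, 0.76 for Fgfr1 and −0.91 for Fgfr3. Fgf21 lost this call without the second hepatocyte control library (−1.15, adjusted p = 0.0747). Between hepatocytes and myotubes it was 1.36 for Fgfr3, 0.66 for Fgfr1, −1.56 for Fgfr4 and −1.81 for Fgfr2. The Fgfr1 difference ranged from 0.51 to 0.99 with a library left out. Between adipocytes and myotubes it was 2.27 for Fgfr3, 2.05 for Fgf21 and −1.57 for Fgfr2. Treatment media and isolation, and possibly site, differed between the 3 cell types compared here, and their part in these differences was not tested. The hepatocyte markers in the myotube butyrate libraries were 29.7, 538 and 122 CPM, and their part in the comparisons with myotubes was not tested.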

How the results depend on the processing

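Of the members called in the comparisons with control, Klb in hepatocytes and adipocytes, Fgf21 in myotubes and adipocytes, Fgfr4 in hepatocytes, Fgfr2 in adipocytes, myotubes and hepatocytes, Fgfr1 in hepatocytes and Fgfr3 in adipocytes, macrophages and hepatocytes kept their direction and call under every alternative. Fgfr2 in macrophages and Fgfr3 in myotubes did not, as given above.

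The count of members called with butyrate against control was 2 in macrophages (3 with library totals alone or only the libraries of the cell types compared, 1 to 2 with a library left out) and 3 in myotubes (2 with either of these or DESeq2, 2 to 4 with a library left out). Against βOHB it was 4 in adipocytes (3 with no filter, 3 to 4 with a library left out), 3 in myotubes (2 with only the libraries of the cell types compared, 2 to 4 with a library left out) and 5 in hepatocytes (5 to 6). With library totals alone the myotube count stayed at 3, but Fgfr3 was not called (adjusted p = 0.221) and Fgfr1 was (log2 fold change 0.37, adjusted p = 0.0149). In macrophages it was 3 with library totals alone, 3 with only the libraries of the cell types compared and 1 to 2 with a library left out (1 with all). Of other pathway genes, βOHB called 1 in adipocytes with no filter (0 otherwise). In myotubes it called 2, but 1 with RLE factors, 0 with library totals alone, 0 with filterByExpr, 1 above 20 counts, 4 with limma-voom, 0 with only the libraries of the cell types compared and 0 to 1 with a library left out.

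Every change of sign belonged to a difference that was not called. For Fgfr1 in adipocytes, βOHB gave 0.007 with RLE factors and DESeq2, 0.0 with the replicate block and −0.052 to 0.062 with a library left out. Butyrate against control gave 0.01 with RLE factors and DESeq2, 0.083 with library totals alone, 0.0 with only the libraries of that cell type and −0.043 to 0.056 with a library left out. Butyrate against βOHB gave 0.003, 0.003, 0.115, 0.001 and −0.052 to 0.045 in that order. The other differences with βOHB, with a library left out, were −0.07 to 0.436 (Fgf21) and −0.017 to 0.157 (Fgfr2) in adipocytes, −0.046 to 0.036 (Fgfr1), −0.0 to 0.183 (Fgfr2) and −0.352 to 0.138 (Fgfr3) in macrophages, −0.127 to 0.005 (Fgfr1), −0.245 to 0.571 (Fgfr2) and −0.055 to 0.148 (Fgfr3) in myotubes, and −0.182 to 0.51 (Fgf21), −0.026 to 0.067 (Fgfr2) and −0.066 to 0.022 (Fgfr3) in hepatocytes. Fgfr2 in myotubes also gave −0.03 with library totals alone, −0.005 with no filter and −0.004 with only the libraries of that cell type. Fgfr4 in myotubes, butyrate against βOHB, gave −0.023 with no filter, −0.002 above 20 counts, −0.021 with limma-voom and −0.188 to 0.155 with a library left out. Fgfr1 in myotubes gave −0.24 to 0.243 against control, −0.167 to 0.316 against βOHB and −0.25 to 0.232 for the response of adipocytes less that of myotubes, and without the third butyrate library the first and second of these were called. The causes were not tested.

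Library totals alone raised the median of all genes with butyrate by 0.202 in macrophages and 0.133 in myotubes, and the split of calls to 6685 higher and 3339 lower (4886 and 5086 with TMM) and 6271 and 3873 (5083 and 5117). With the replicate block, butyrate called 9362, 9933, 10188 and 9723 genes in adipocytes, macrophages, myotubes and hepatocytes against 9359, 9972, 10200 and 9737. No source states that the replicate numbers pair libraries (correlations −0.264 to 0.273). Of the members only the control difference of Fgf21 between adipocytes and hepatocytes lost its call with the block (−0.889, adjusted p = 0.0659). Depth limited Fgf21 outside myotubes, at 0 to 24 counts a library.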
